A study of Rattus norvegicus with 9 samples.

Results

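The genes described here are those of the extracellular matrix, together with the transcripts that mark meningeal fibroblasts, measured by RNA sequencing in the rat hippocampus. They were taken by gene name: every collagen chain, laminin chain, fibulin and tissue inhibitor of metalloproteinases, plus Fn1, Dcn, Lum, Bgn, Sparc, Sparcl1, Nid1, Nid2, Hspg2, Slc6a13, Ogn and Vtn. The rule gave 75 of 30562 genes, of which 44 were collagens, 11 laminins, 4 fibulins, 4 TIMP genes and 12 genes chosen singly. Slc6a20 was not analysed here. Of the 75 genes, 23 carried enough counts to be tested for differences between groups, and the other 52 are described by their counts.

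The samples were hippocampi of male Sprague-Dawley rats that were 6 to 8 weeks old at the start and were acclimatized for 1 week. Ctrl denotes the control rats. Model rats were fed a high-fat diet for 4 weeks, received a single injection of 50 mg/kg streptozotocin, which destroys insulin-producing cells, were kept if blood glucose passed 16.7 mmol/L, and were then exposed to chronic unpredictable mild stress for 5 weeks, a protocol that models diabetes with depression. ChryM rats received chrysophanol, a plant anthraquinone, by oral gavage for 14 days; that they had also been through the model protocol follows from the study's title, and neither their dose nor the meaning of the M is stated in the labels. Each group had 3 libraries of poly(A) RNA. The labels do not tie libraries to separate animals, so a p-value here reflects only how much these libraries vary, and that variation may be technical. The protocol is a compound model: diet, toxin, hyperglycaemia and stress cannot be told apart in it.

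Brain matrix differs from that of connective tissue. Basement membranes of type IV collagen, laminin, nidogen and perlecan ensheath the vessels and line the brain surface, where they are laid down by endothelial cells, pericytes, astrocytes and fibroblasts. Fibrillar collagens and small leucine-rich proteoglycans, by contrast, come mainly from fibroblasts of the meninges, of the choroid plexus stroma and of the space around larger vessels. Neurons and glia secrete matricellular proteins of the SPARC family, which bind other matrix components and act on synapses more than they bear load.

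The smallest p-value among these genes was that of Col4a2. Col4a1 and Col4a2 encode the chains of the vascular type IV collagen trimer and are transcribed away from each other from a shared promoter. The interval between their RefSeq starts on rat build GRCr8 spans chr16:84885521-84885596, 76 bases, and 78.9% of it is G or C, against a median of 53.9% over 33465 RefSeq promoter windows of that length. It is shown on the plus strand because both genes start from it, and the 150 bases before the starts of Col18a1 (chr20:11473495-11473644, plus strand), a further basement membrane collagen, and of Col1a2 (chr4:33518407-33518556, plus strand), a fibroblast collagen, are set beside it. Capitals mark matches to the GC box, GGGCGG, here all read as its reverse complement CCGCCC.
Col4a1-Col4a2 interval: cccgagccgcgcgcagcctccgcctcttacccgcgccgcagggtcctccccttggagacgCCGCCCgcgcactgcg
Col18a1: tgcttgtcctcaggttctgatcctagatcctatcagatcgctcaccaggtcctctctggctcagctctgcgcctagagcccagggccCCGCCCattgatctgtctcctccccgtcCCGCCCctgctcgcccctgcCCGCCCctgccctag
Col1a2: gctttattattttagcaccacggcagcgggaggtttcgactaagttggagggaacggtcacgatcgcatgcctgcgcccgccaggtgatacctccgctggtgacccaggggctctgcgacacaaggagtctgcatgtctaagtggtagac
The interval held 1 GC box, Col18a1 held 3 and Col1a2 held none. Of all RefSeq promoter windows, 18.1% of those of 76 bases and 26.0% of those of 150 bases held at least 1. The CCAAT box (CCAAT) and the TATA box (TATAAA), also searched on both strands, had no match in these 3 windows. The matches describe letters only. Of the 23 tested members, 11 overlap another RefSeq gene and 5 more have one within 1 kb. Only some of these neighbours are named beside a result. Among the others, Cep295nl overlaps Timp2 on the same strand, and an opposite-strand long noncoding RNA gene and a pseudogene overlap Col18a1. Tcfl5 lies 2 bases from Col9a3, and Usp19 lies 136 bases from Lamb2. Their part in the counts was not tested.

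Sequencing was shallow. The libraries held 631119 to 866048 counts, 13343 to 14256 genes had a count in a given library, and the 75 matrix genes took 0.293% to 0.320% of counts. Sparcl1 alone made up 38.4% of the matrix counts and the 4 highest members 68.5%. Libraries also differed in tissue composition as read from marker genes. The summed level of 17 choroid plexus markers was 1780 to 1858 CPM (counts scaled to a common library total, adjusted by TMM) in Ctrl, 29.0 to 55.1 in Model and 80.5 to 107 in ChryM, and that of 12 meningeal fibroblast markers, 7 of them members, was 181 to 194, 35.9 to 41.0 and 37.8 to 44.3. In Ctrl, the single gene Ttr made up most of the first sum and Igf2 most of the second. Only 4 of the 17 markers and 1 of the 12 carried enough counts to be tested. The 10 hippocampal markers summed to 444 to 513, 345 to 396 and 423 to 464 CPM, with Spink8 at no count, and the 10 oligodendrocyte markers to 15978 to 16221, 9053 to 10143 and 15953 to 16973. Blood markers (5 genes) summed to 333 to 360, 73.4 to 90.5 and 105 to 110 CPM, with both tested globin genes called lower against Ctrl in Model and in ChryM. In bulk tissue, fewer cells of a type and less RNA per cell cannot be told apart.

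Matrix genes moved in each comparison, and most often between ChryM and Ctrl. In Model against Ctrl, 5 of 23 tested members passed an adjusted p of 0.05 (edgeR quasi-likelihood test, Benjamini-Hochberg over 7073 genes), a share of 21.7% beside 12.4% of all tested genes; 3 were higher (7.04% of all genes were) and 2 lower (5.39%). In ChryM against Model, 6 members passed (26.1%, beside 8.27% of all tested genes), 4 of them higher (beside 3.86%) and 2 lower (beside 4.41%). In ChryM against Ctrl, 14 members passed (60.9%, beside 18.8%), 8 of them higher (beside 9.83%) and 6 lower (beside 8.96%). These comparisons share groups and are not independent of each other. The members showed no common direction: their median log2 fold changes were 0.01, -0.05 and -0.06, against -0.02, 0.00 and -0.01 over all tested genes. The counts depend on the test: limma on log2(FPKM + 1) called 3, 3 and 6 members, beside 7.82%, 4.98% and 11.2% of all genes. DESeq2 called 2, 3 and 7, beside 28.4%, 9.04% and 11.7% of the 1553, 2910 and 4944 genes it gave an adjusted p. How many members were among those genes is not given here, so the DESeq2 counts cannot be set against these shares. With limma 14 of the 25 calls were lost, including every call on Col4a1, Col18a1, Col5a3, Col27a1, Col6a1, Col6a2, Col6a6, Lamb2 and Timp2. With DESeq2 7 were lost. These were Col4a1 in ChryM against Model, and Col6a1, Col27a1, Sparcl1, Col5a3, Timp2 and Lamb2 in ChryM against Ctrl.

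**Figure D1:**
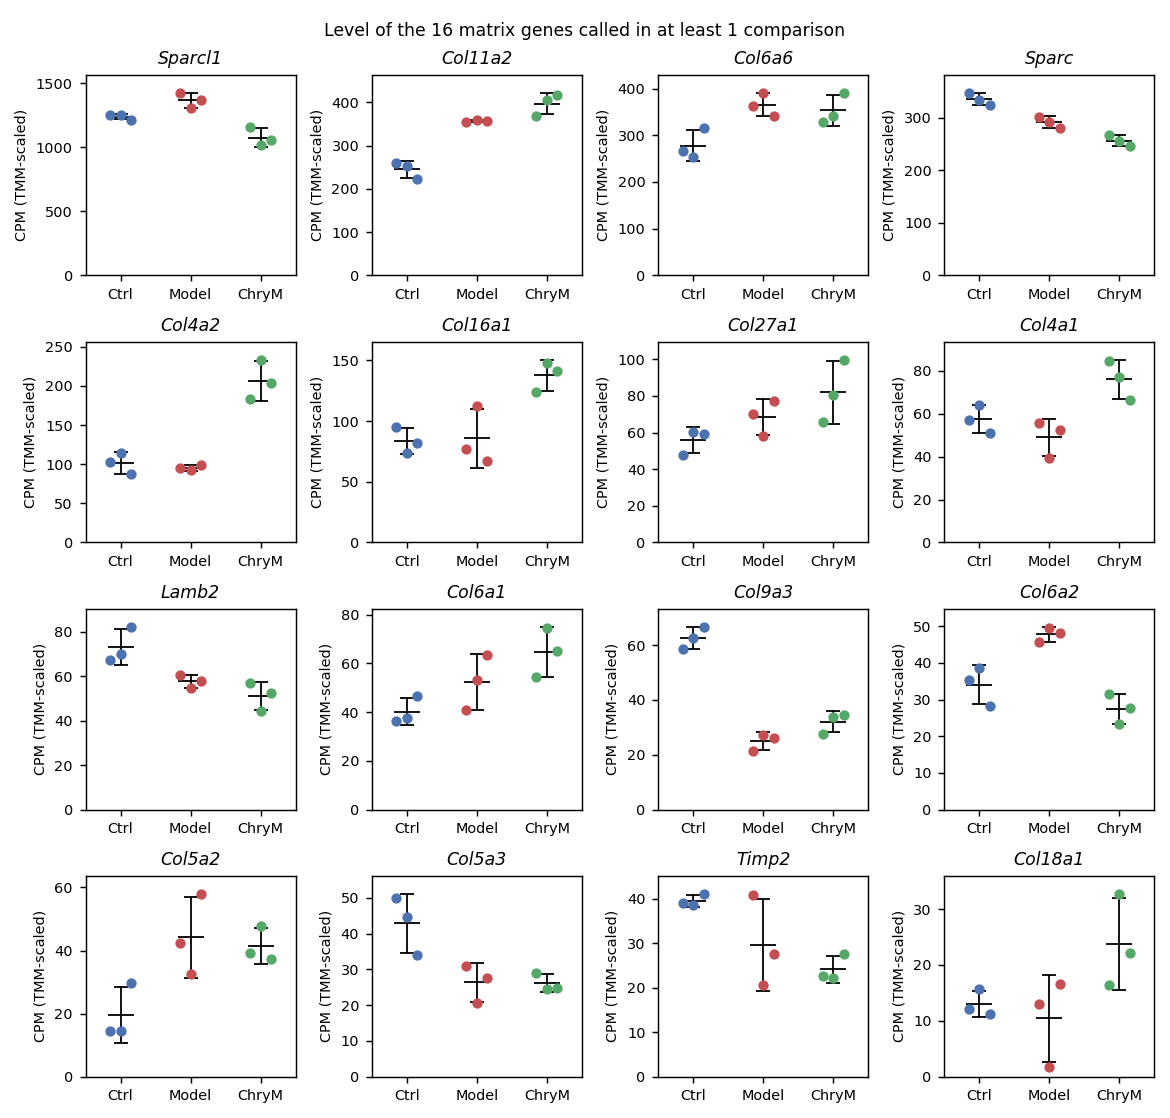
CPM (TMM-scaled) of the 16 matrix genes called in at least 1 comparison, 1 point per library, with the group mean and bars of ± 1 SD (n = 3); each panel has its own scale from 0. The ChryM points lie above all others for Col4a2, Col16a1 and Col4a1 and below all others for Sparcl1 and Sparc, and the Ctrl points lie above all others for Col9a3 and Lamb2.

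**Figure D2:**
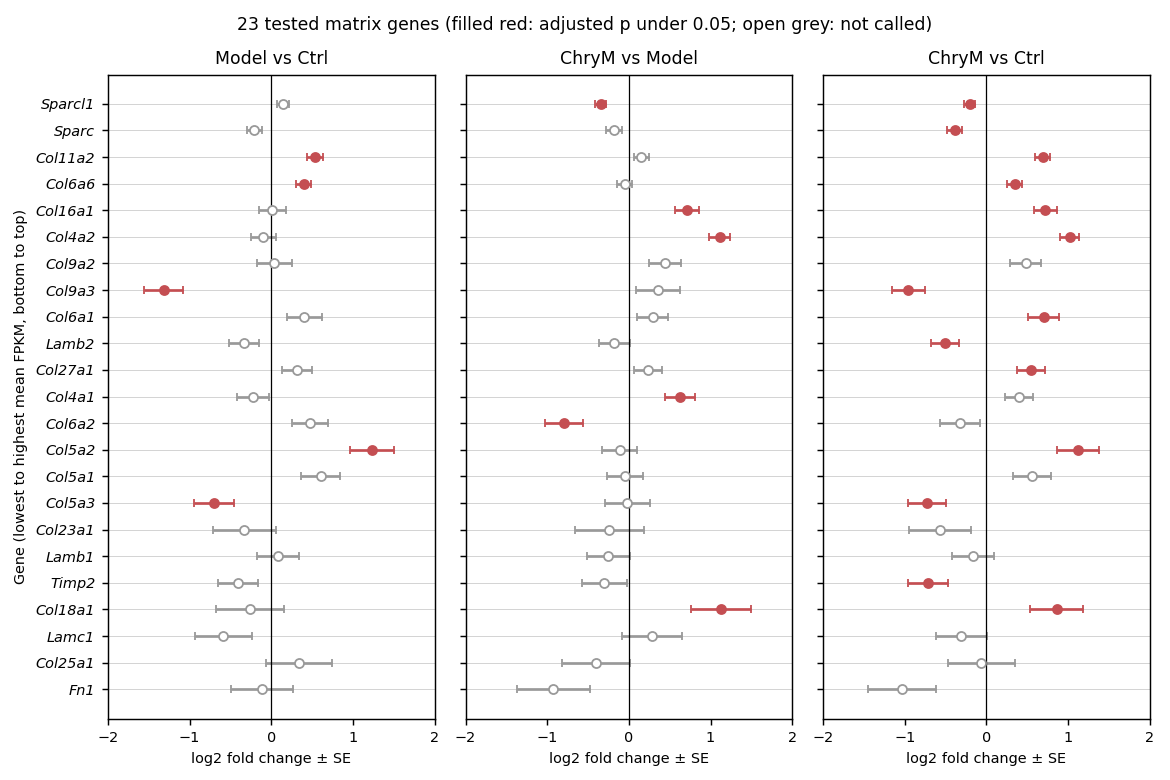
Log2 fold changes of the 23 tested genes in the 3 comparisons, ordered by mean FPKM, with bars of ± 1 SE; filled red points passed an adjusted p of 0.05 and open grey points did not. Col4a2, Col16a1 and Col18a1 lie to the right in both ChryM comparisons, and Col9a3 lies to the left in both comparisons with Ctrl.

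Of the type IV collagen genes, Col4a2 rose in ChryM against both other groups and Col4a1 against Model. Col4a2 (ENSRNOG00000023972) stood at 102, 115 and 87.6 CPM in the Ctrl libraries, 94.6, 92.3 and 99.1 in Model and 183, 233 and 203 in ChryM. All 3 ChryM libraries lay above all 6 others, while Ctrl and Model overlapped. Its log2 fold change was 1.11 ± 0.13 (SE) against Model (edgeR adjusted p = 4.26e-13) and 1.02 ± 0.12 against Ctrl (adjusted p = 1.14e-12), beside -0.10 ± 0.15 for Model against Ctrl (adjusted p = 0.766). Both calls held under all 18 alternative settings.

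Its partner Col4a1 (ENSRNOG00000016281) gave 57.2, 63.9 and 50.9 CPM in Ctrl, 55.4, 39.3 and 52.3 in Model and 84.5, 77.0 and 66.4 in ChryM. The ChryM libraries again lay above the rest, by a smaller margin. Col4a1 rose by a log2 fold change of 0.63 ± 0.19 over Model (edgeR adjusted p = 0.0168) and stood at 0.40 ± 0.17 against Ctrl (adjusted p = 0.085), which did not pass. The Model call was lost without Model library 2 (adjusted p = 0.159), ChryM library 1 (0.118) or ChryM library 2 (0.0559).

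Per unit of transcript length, Col4a2 exceeded Col4a1 in every library. The ratio of their FPKM values was 1.60, 1.60 and 1.54 in Ctrl, 1.52, 2.10 and 1.69 in Model and 1.93, 2.71 and 2.74 in ChryM. The ratio was therefore uneven across libraries: ChryM library 1 fell within the range of Model, and ChryM libraries 2 and 3 lay above all others. A difference in the ratio was not tested. Col4a1 overlaps long noncoding RNA genes on the opposite strand in the GRCr8 annotation. The strand setting of the authors' counting is not given in the sources used here, and whether these genes shared reads was not tested.

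Col18a1 (ENSRNOG00000001229), whose protein carries the endostatin domain and decorates vascular basement membranes, had few counts. The Ctrl libraries gave 12.2, 15.7 and 11.3 CPM, Model 13.0, 1.71 and 16.5, and ChryM 16.4, 32.7 and 22.1. Model library 2 was far below the others of its group and ChryM library 2 far above, and the Model and ChryM ranges met at 16.4 to 16.5. The log2 fold changes of 1.13 ± 0.37 against Model (edgeR adjusted p = 0.0307) and 0.86 ± 0.33 against Ctrl (adjusted p = 0.0482) rested on these libraries: without Model library 2 or ChryM library 2 the first went to adjusted p = 0.357 and 0.341, and the second was lost without Ctrl library 1 (0.145), Ctrl library 3 (0.133), ChryM library 2 (0.406) or ChryM library 3 (0.0763). With the replicate number as a block the call against Ctrl was also lost.

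The 8 basement membrane collagens together summed to 182 ± 23.4 CPM (SD, n = 3) in Ctrl, 169 ± 21.9 in Model and 315 ± 31.4 in ChryM. The other 5 of them, Col4a3, Col4a4, Col4a5, Col4a6 and Col15a1, were too low to test, with 0 to 6 counts per library. Over the same libraries, 12 endothelial markers summed to 137 to 148 CPM in Ctrl, 114 to 140 in Model and 92.0 to 101 in ChryM, and 11 mural cell markers averaged 89.9 ± 8.47, 55.8 ± 19.3 and 56.3 ± 3.47. The collagen sum was thus highest in the libraries with the lowest endothelial sum, while the mural sum differed between Ctrl and the other groups and little between Model and ChryM. Of 3 endothelial and 2 mural markers tested, none was called in ChryM against Model by edgeR, DESeq2 or limma, and 1 endothelial marker had an unadjusted edgeR p under 0.05. Against Ctrl, edgeR called the endothelial marker Flt1 and the mural marker Myh11 lower in ChryM. It also called the mural marker Cspg4 lower in Model. DESeq2 called none of these markers against Ctrl. The part of vessel cells in the collagen result was not tested.

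**Figure D3:**
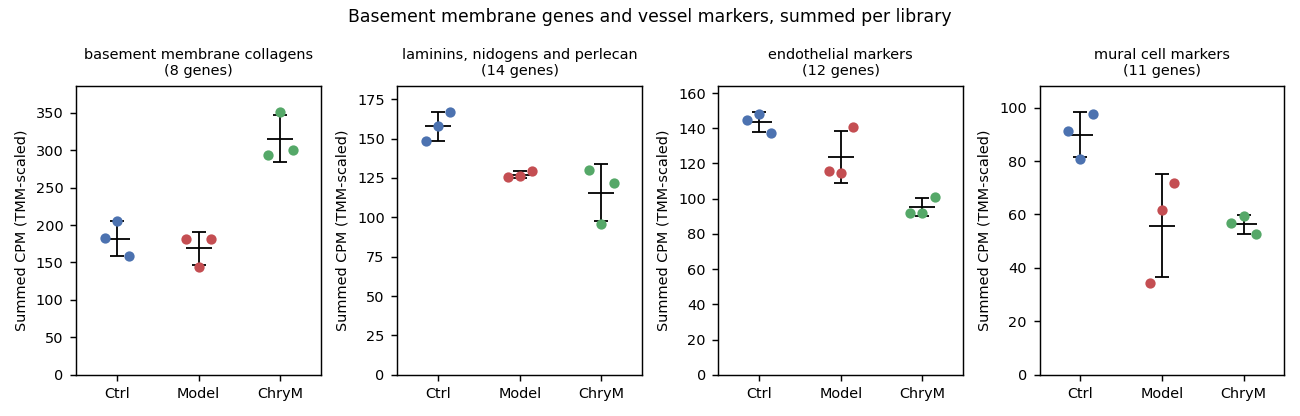
Summed TMM-scaled CPM of basement membrane collagens, of laminins with nidogens and perlecan, and of endothelial and mural cell markers, 1 point per library, with the group mean and bars of ± 1 SD (n = 3). The collagen sum is highest in the 3 ChryM libraries (mean 315) and the endothelial sum lowest there (mean 95.1).

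Laminins, the network that type IV collagen is laid beside, did not rise with it. The 14 laminin, nidogen and perlecan genes summed to 158 ± 9.11 CPM in Ctrl, 127 ± 2.04 in Model and 116 ± 17.9 in ChryM. Only 3 of the 14 could be tested. Lamb2 (ENSRNOG00000047768), the beta chain of vascular and synaptic laminins, measured 67.0, 69.9 and 82.0 CPM in Ctrl, 60.3, 54.7 and 57.8 in Model and 56.7, 44.3 and 52.6 in ChryM. Every Model and ChryM library lay below every Ctrl library. The fall passed the test for ChryM against Ctrl (log2 fold change -0.51 ± 0.18, edgeR adjusted p = 0.0292) and not for Model against Ctrl (-0.33 ± 0.18, adjusted p = 0.255); it was lost without Ctrl library 2 (0.0521) or 3 (0.129) or ChryM library 2 (0.178) or 3 (0.0519).

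The gamma chain gene Lamc1, part of most laminins, gave 19.5, 18.1 and 24.0 CPM in Ctrl, 16.3, 15.4 and 9.64 in Model and 18.9, 14.0 and 16.6 in ChryM. The beta chain gene Lamb1 gave 29.2, 27.7 and 28.3, then 22.8, 27.3 and 38.6, then 27.7, 23.3 and 24.9. Neither passed in any comparison, and for both genes ChryM overlapped both other groups. Nid1 (ENSRNOG00000002461), which links laminin to type IV collagen, was named after its counts were seen. It had 4, 6 and 5 counts in the Ctrl libraries, none in any Model library and 2, 1 and 2 in ChryM. Set against a floor of 3 counts over the group, Nid1 was 4.42-fold higher in Ctrl than in Model. The exact 95% lower limit of that ratio, with Model at 0 counts, was 3.17. A fit without a count filter gave an edgeR adjusted p of 0.00601, and 1.58% of 17492 genes were called lower there. For ChryM against Ctrl the ratio of Nid1 was 3.14 in favour of Ctrl (95% exact interval 1.09 to 11.1; adjusted p = 0.281). Nid2, the related nidogen (6 counts in Ctrl and 4 in Model), and Hspg2, the perlecan gene (18 and 16), had ratios near 1 with wide intervals: 1.32 of Ctrl to Model (0.314 to 6.38) and 1.01 of Model to Ctrl (0.480 to 2.09), both at an edgeR adjusted p of 0.984 in the same fit.

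Among fibrillar collagens, Col11a2 and Col5a2 rose and Col5a3 fell in both Model and ChryM against Ctrl, while type I and III collagens were scarce and mostly found in Ctrl. Summed over its 11 genes, the class stood at 439 ± 24.8 CPM in Ctrl, 553 ± 22.9 in Model and 606 ± 39.3 in ChryM, and most of this was Col11a2. Col11a2 (ENSRNOG00000000463), a chain of the cartilage-type collagen XI, gave 261, 252 and 223 CPM in Ctrl, 355, 360 and 357 in Model and 369, 405 and 418 in ChryM. The groups did not overlap. Its log2 fold changes over Ctrl were 0.54 ± 0.10 in Model (edgeR adjusted p = 4.15e-06) and 0.69 ± 0.09 in ChryM (adjusted p = 2.3e-10), and both held under all 18 alternatives; ChryM against Model did not pass (0.15 ± 0.09, adjusted p = 0.362).

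The annotation places Rxrb, a retinoid receptor gene, 214 bases from Col11a2 on the same strand. Rxrb carried 11283 counts in all, many times those of Col11a2, and had log2 fold changes of 0.18, -0.14 and 0.05 in Model against Ctrl, ChryM against Model and ChryM against Ctrl, none of them called. Read-through between these neighbours was not tested.

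Type V collagen, which sets fibril diameter, split by chain. Col5a2 (ENSRNOG00000003736) had 14.6, 14.5 and 29.7 CPM in Ctrl, 42.4, 32.5 and 57.8 in Model and 39.1, 47.8 and 37.4 in ChryM. Ctrl library 3 stood well above its group and just under the lowest Model library; all Ctrl libraries lay below all others, and Model and ChryM overlapped. Col5a2 rose by 1.23 ± 0.26 in Model (edgeR adjusted p = 0.000167) and by 1.12 ± 0.26 in ChryM over Ctrl (adjusted p = 0.000354); with limma on log2(FPKM + 1) or log2(FPKM + 0.1) the Model call was lost.

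Col5a3 (ENSRNOG00000020525) moved in the opposite direction. Its levels were 49.9, 44.6 and 33.9 CPM in Ctrl, 31.0, 20.5 and 27.5 in Model and 29.0, 24.5 and 24.9 in ChryM. The falls of 0.70 ± 0.25 in Model and 0.72 ± 0.23 in ChryM (log2, edgeR adjusted p = 0.0398 and 0.0161) did not survive the loss of single libraries. The Model call went without Ctrl library 1 (0.212) or 2 (0.111) or Model library 2 (0.199) or 3 (0.0949), and the ChryM call without Ctrl library 1 (0.126) or 2 (0.0566) or ChryM library 2 (0.0718) or 3 (0.0524). Col5a1, the chain common to most type V trimers, stood at 27.9 ± 8.89, 43.1 ± 7.32 and 40.7 ± 11.2 CPM and passed nowhere.

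Col27a1 (ENSRNOG00000007657), a fibrillar collagen of cartilage, gave 47.5, 60.3 and 59.4 CPM in Ctrl, 70.1, 58.1 and 77.1 in Model and 65.6, 80.5 and 99.6 in ChryM. ChryM lay above Ctrl without overlap (log2 fold change 0.55 ± 0.17, edgeR adjusted p = 0.0125), and the call was lost without Ctrl library 1 (0.111) or ChryM library 3 (0.178). Model overlapped both groups.

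The interstitial collagens of fibroblasts were near the counting floor, and what there was lay in Ctrl. Col1a1 (ENSRNOG00000003897), a chain of type I collagen, had 20, 14 and 9 counts in Ctrl, 2, 1 and 7 in Model and 1, 4 and 0 in ChryM. Col1a2 (ENSRNOG00000011292), the other type I chain, had 10, 4 and 7, then 1, 1 and 0, then 4, 0 and 2. Col3a1 (ENSRNOG00000003357), type III collagen, had 10 in each Ctrl library, 1 in each Model library and 0, 0 and 1 in ChryM. Sgca, a muscle sarcoglycan gene with 18 counts in all, overlaps Col1a1. Each of the 3 collagen genes had more counts in every Ctrl library than in any Model library, and Col1a2 alone overlapped between Ctrl and ChryM.

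Summed, these 3 genes gave 40, 28 and 26 counts in the Ctrl libraries, 4, 3 and 8 in Model and 5, 4 and 3 in ChryM. Per count sequenced, Ctrl exceeded Model 5.53-fold (95% exact interval 3.19 to 10.3) and ChryM 8.21-fold (4.49 to 16.5), and the ratio of ChryM to Model was 0.674 (0.288 to 1.54). The intervals cover counting error only. None of the 3 passed the count filter. In the fit without a filter, Col1a1, Col1a2 and Col3a1 fell in Model against Ctrl with edgeR adjusted p of 0.00655, 0.0144 and 0.00148, and Col1a1 and Col3a1 fell in ChryM against Ctrl with 1.97e-06 and 4.09e-06, while Col1a2 did not pass (0.0816). In that fit 1.58% of all genes were called lower in Model against Ctrl and 2.77% in ChryM against Ctrl.

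**Figure D4:**
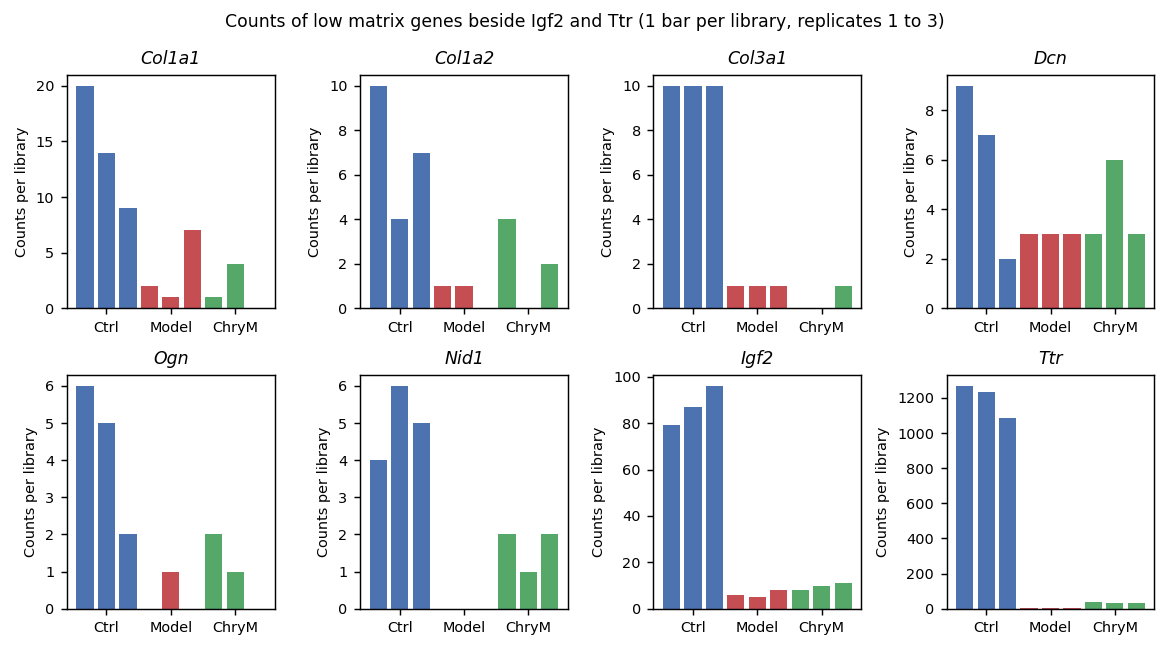
Counts per library of 6 low matrix genes beside Igf2 and Ttr, 1 bar per library, each panel with its own scale from 0. The Ctrl libraries hold 10 Col3a1 counts each, and no Model or ChryM library holds more than 1.

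Other genes of the meningeal fibroblast type were as scarce. Dcn, the proteoglycan decorin that binds type I collagen, had 9, 7 and 2 counts in Ctrl, 3, 3 and 3 in Model and 3, 6 and 3 in ChryM, and these overlapped. Ogn (osteoglycin) had 6, 5 and 2, then 0, 1 and 0, then 2, 1 and 0. Lum (lumican) had 6 counts and Slc6a13, a GABA and taurine transporter of the leptomeninges, 4 counts over all 9 libraries. The label of these genes as meningeal therefore rests on few transcripts: the 7 fibroblast genes Col1a1, Col1a2, Col3a1, Dcn, Lum, Slc6a13 and Ogn gave 56, 42 and 30 counts in the Ctrl libraries, 7, 9 and 12 in Model and 11, 13 and 7 in ChryM, of 21098 counts for all matrix genes.

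In Ctrl against Model, Ogn was 11.5-fold higher (95% exact interval 1.72 to 488; edgeR adjusted p = 0.0942 without a filter). Fbln2, a fibulin of elastic fibres and basement membranes, had 15, 9 and 2 counts in Ctrl, 3, 3 and 2 in Model and 6, 2 and 3 in ChryM, a ratio of Ctrl to Model of 2.87 (1.26 to 7.34; adjusted p = 0.193). Neither passed. Bgn (biglycan) ranged from 1 to 8 counts with every group overlapping.

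The type I and III collagen genes were low in the Model and ChryM libraries, where choroid plexus and meningeal transcripts were also low. The parallel did not extend to all fibroblast genes. Lum and Slc6a13 were scarce in every group. Pdgfra, a marker outside the members, had 29 counts in Ctrl, 18 in Model and 32 in ChryM. Ttr, the thyroid hormone carrier of choroid plexus epithelium, had 1268, 1233 and 1086 counts in Ctrl, 2 in each Model library and 37, 33 and 31 in ChryM. Igf2, a growth factor of meninges and choroid plexus, had 79, 87 and 96, then 6, 5 and 8, then 8, 10 and 11. Ttr and Igf2 also entered the marker sums given above. Between Model and ChryM the parallel did not hold for Ttr, which was 14.2-fold higher in ChryM (95% exact interval 6.29 to 39.6). The ChryM to Model ratio of the summed type I and III collagen counts was 0.674 (0.288 to 1.54). How much meninges or choroid plexus was dissected with the hippocampus is not given, and its part in the fibroblast gene counts was not tested. The 52 untested members as a whole gave 172, 152 and 111 counts in Ctrl, 80, 88 and 95 in Model and 119, 98 and 93 in ChryM.

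Type VI collagen forms beaded filaments around cells and basement membranes. Its 6 genes summed to 357 ± 32.5 CPM in Ctrl, 470 ± 26.1 in Model and 455 ± 32.4 in ChryM. Most of this was Col6a6, which averaged 278, 365 and 353 CPM. The type VI chains did not share a pattern. Col6a6 (ENSRNOG00000023007) gave 266, 253 and 315 CPM in Ctrl, 364, 391 and 341 in Model and 328, 342 and 390 in ChryM. It was higher than Ctrl in every library of both groups, by 0.40 ± 0.10 in Model (log2, edgeR adjusted p = 0.00119) and 0.35 ± 0.09 in ChryM (adjusted p = 0.00279). Both calls were lost with limma on log2(FPKM + 1) or log2(FPKM + 0.1), and the ChryM call also without ChryM library 3 (0.0648). Rpl29, a ribosomal protein gene, lies across Col6a6 on the opposite strand with 1310 counts and moved the other way in Model (log2 fold change -0.34, adjusted p = 0.0326).

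Col6a1 (ENSRNOG00000001249), a core chain of the type VI trimer, had 36.5, 37.4 and 46.7 CPM in Ctrl, 40.8, 53.0 and 63.3 in Model and 54.2, 74.6 and 65.0 in ChryM. It rose in ChryM over Ctrl by 0.70 ± 0.19 (log2, edgeR adjusted p = 0.00411; 0.0626 without ChryM library 2), and Model overlapped both. Col6a2 (ENSRNOG00000001254), its partner chain, had 35.3, 38.6 and 28.3 CPM in Ctrl, 45.6, 49.5 and 48.2 in Model and 31.5, 23.3 and 27.7 in ChryM. Model was the highest group, and ChryM fell by 0.80 ± 0.23 against it (adjusted p = 0.0142; 0.0555 without Model library 3 and 0.111 without ChryM library 2). Against Ctrl, Col6a2 in ChryM did not pass (-0.32 ± 0.24, adjusted p = 0.387).

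Fibril-associated collagens sit on the surface of other fibrils. Col9a3 (ENSRNOG00000009531), a chain of collagen IX, had 58.5, 62.7 and 66.4 CPM in Ctrl, 21.2, 27.3 and 26.2 in Model and 27.7, 33.8 and 34.6 in ChryM. Every Model and ChryM library was under every Ctrl library, and Model was under ChryM. It fell by 1.32 ± 0.24 in Model (log2, edgeR adjusted p = 1.61e-06) and by 0.96 ± 0.20 in ChryM against Ctrl (adjusted p = 9.18e-05), in all alternatives that gave a value; ChryM against Model did not pass (0.36 ± 0.27, adjusted p = 0.496). The Ctrl libraries are also those with the highest choroid plexus and meningeal marker sums, and the part of these in Col9a3 was not tested. Its partner chain Col9a2 stood at 44.0 ± 6.24, 44.9 ± 4.35 and 61.6 ± 7.48 CPM and passed in no comparison.

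Col16a1 (ENSRNOG00000031475), which binds integrins and fibrils, measured 95.0, 73.6 and 82.0 CPM in Ctrl, 76.6, 113 and 67.5 in Model and 124, 148 and 141 in ChryM. As for Col4a2, the 3 ChryM libraries exceeded all others and the other groups overlapped. It rose by 0.71 ± 0.15 over Model (log2, edgeR adjusted p = 0.000146), under all 18 alternatives, and by 0.72 ± 0.14 over Ctrl (adjusted p = 1.63e-05), a call lost with limma on log2(FPKM + 1) or log2(FPKM + 0.1). A long noncoding RNA gene overlaps it on the opposite strand. The transmembrane collagens Col23a1 and Col25a1, at means of 10.5 to 15.7 and 11.1 to 15.2 CPM, passed nowhere.

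The SPARC family supplied the most abundant matrix transcripts. Sparcl1 (hevin), secreted by astrocytes and known for promoting excitatory synapses, averaged 407 FPKM over all libraries and Sparc, its close relative, which binds collagen and opposes hevin at synapses, 96.5 FPKM, against a median of 9.97 FPKM over all tested genes. Sparcl1 (ENSRNOG00000015093) gave 1248, 1254 and 1214 CPM in Ctrl, 1422, 1305 and 1371 in Model and 1155, 1015 and 1055 in ChryM. Model was highest and ChryM lowest, with no overlap. The fall in ChryM against Model was 0.35 ± 0.07 (log2, edgeR adjusted p = 0.000185), held under all 18 alternatives. Against Ctrl it was 0.21 ± 0.07 (adjusted p = 0.0298), lost without Ctrl library 1 (0.0940) or 2 (0.0707) or ChryM library 2 (0.211) or 3 (0.0615). The call against Ctrl was also lost with DESeq2 and with no count filter. Model against Ctrl did not pass (0.14 ± 0.07, adjusted p = 0.215).

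**Figure D5:**
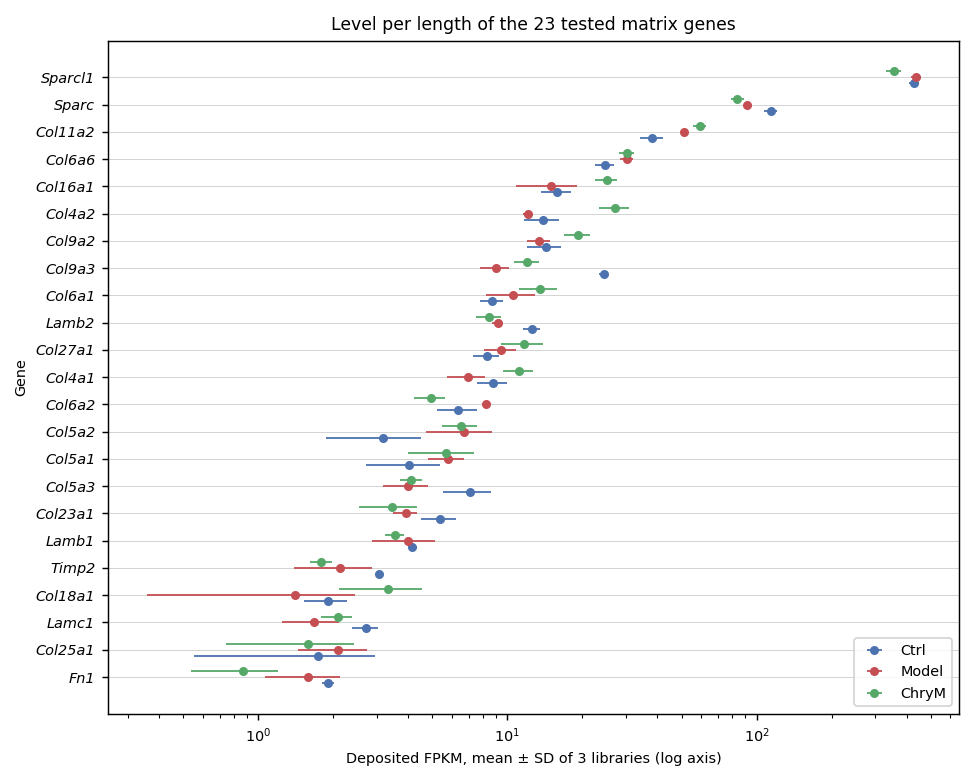
Deposited FPKM of the 23 tested genes on a log axis, as the mean of 3 libraries per group with bars of ± 1 SD. Sparcl1 and Sparc stand above the collagens, and Fn1 and Col25a1 are at the bottom.

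Sparc (ENSRNOG00000012840) gave 347, 334 and 324 CPM in Ctrl, 302, 292 and 280 in Model and 267, 255 and 246 in ChryM, a descending order with no overlap between groups. ChryM fell against Ctrl by 0.39 ± 0.09 (log2, edgeR adjusted p = 0.000739), under all 18 alternatives. The steps from Ctrl to Model (-0.21 ± 0.09, adjusted p = 0.152) and from Model to ChryM (-0.18 ± 0.10, adjusted p = 0.311) did not pass; the first was called with library-total scaling and with limma on log2(FPKM + 1) or log2(FPKM + 0.1). Beside them, 8 astrocyte markers summed to 1566 to 1732 CPM in Ctrl, 1552 to 1613 in Model and 1433 to 1481 in ChryM, and 12 endothelial markers were likewise lowest in ChryM; the part of cell composition was not tested.

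Fn1 (ENSRNOG00000014288), fibronectin, which cells bind through integrins, was the only adhesive glycoprotein member with enough counts to test. It had 15.8, 14.5 and 17.0 CPM in Ctrl, 13.0, 10.3 and 19.3 in Model and 6.30, 10.5 and 5.54 in ChryM. All ChryM libraries lay under all Ctrl libraries, but the difference missed the threshold (log2 fold change -1.03 ± 0.42, edgeR adjusted p = 0.067). Vtn, vitronectin, a transcript of brain pericytes, had 4 to 13 counts per library, and all groups overlapped.

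Tissue inhibitors of metalloproteinases restrain matrix breakdown. Timp2 (ENSRNOG00000033143), which also takes part in activating gelatinase A, measured 39.0, 38.6 and 41.0 CPM in Ctrl, 40.8, 20.5 and 27.5 in Model and 22.7, 22.2 and 27.7 in ChryM. ChryM lay below Ctrl (log2 fold change -0.71 ± 0.24, edgeR adjusted p = 0.025), while Model overlapped both groups. The call was lost without any single Ctrl library (0.0544 to 0.0634), without ChryM library 1 (0.0822) and without ChryM library 2 (0.101). Timp1, Timp3 and Timp4 held 2, 18 and 62 counts in all. They lie inside the synapsin genes Syn1, Syn3 and Syn2 in that order, which held 1237, 235 and 348 counts, and without strand the reads of host and guest gene cannot be told apart.

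Genes that act on or around this matrix were taken from lists outside the naming rule. Of 12 tested proteases, folding and cross-linking enzymes (33 matched), 2 rose (Loxl3, Mmp24) and 2 fell (Adamts4, P4hb) in Model against Ctrl, 1 fell (Serpinh1) in ChryM against Model, and 2 rose (Loxl3, Loxl2) and 2 fell (Adamts4, Serpinh1) in ChryM against Ctrl, beside the 12.4%, 8.27% and 18.8% of all tested genes called in these comparisons. DESeq2 called 2, 0 and 1 of them and limma on log2(FPKM + 1) 2, 0 and 3. Serpinh1 encodes the collagen chaperone HSP47, and its level was 33.6 ± 6.59 CPM in Ctrl, 35.0 ± 9.75 in Model and 18.3 ± 2.85 in ChryM. The log2 fold change was -0.96 ± 0.28 against Model (edgeR adjusted p = 0.0149; 0.120 without Model library 1, 0.093 without Model library 3, 0.103 without ChryM library 2) and -0.90 ± 0.27 against Ctrl (adjusted p = 0.00941; 0.111 without Ctrl library 2, 0.0726 without ChryM library 2). The chaperone was thus lowest in the group in which Col4a1 and Col4a2 were highest. Loxl3, a lysyl oxidase that cross-links collagen, went from 218 ± 2.15 CPM in Ctrl to 316 ± 28.4 in Model and 346 ± 6.61 in ChryM, rises of 0.54 ± 0.10 (adjusted p = 9.98e-06) and 0.67 ± 0.10 (adjusted p = 3.5e-09). Adamts4, an aggrecanase, fell from 21.6 ± 2.56 CPM in Ctrl to 6.99 ± 4.32 in Model (-1.65 ± 0.45, adjusted p = 0.00263). Its fall in ChryM against Ctrl (-1.27 ± 0.37, adjusted p = 0.00753) was lost without Ctrl library 1 (0.0624) or ChryM library 2 (0.0543), and the rise of Mmp24, a membrane-bound metalloproteinase of neurons (0.26 ± 0.08, adjusted p = 0.012), without Ctrl library 1 (0.0584), Ctrl library 2 (0.0931) or Model library 2 (0.122).

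The matrix of the neural parenchyma itself, built of lecticans, link proteins and tenascins, gave 1 higher and 2 lower of 10 tested genes in Model against Ctrl, 1 and 1 in ChryM against Model, and 1 and 2 in ChryM against Ctrl, again beside 12.4%, 8.27% and 18.8% of all genes. DESeq2 called 0, 1 and 1 of them and limma on log2(FPKM + 1) 1, 1 and 1. Hapln2, the link protein of nodes of Ranvier, was the rise in all of them, from 44.5 ± 7.33 CPM in Ctrl to 65.0 ± 13.9 in Model and 94.7 ± 8.09 in ChryM. The total rise from Ctrl to ChryM was 1.09 ± 0.17 (log2, edgeR adjusted p = 1.11e-07) and held in all alternatives. The steps to Model (0.57 ± 0.20, adjusted p = 0.0401) and from Model to ChryM (0.53 ± 0.17, adjusted p = 0.0277) were each lost without any of 4 single libraries. These were Ctrl 1 (0.204), Ctrl 2 (0.104), Model 1 (0.234) or Model 3 (0.156) for the first, and Model 2 (0.275), Model 3 (0.0561), ChryM 2 (0.0593) or ChryM 3 (0.132) for the second. The first step was also lost with library-total scaling, both limma fits, no count filter and a fit of the compared groups only. The second was also lost with DESeq2 and with no count filter. Ncan, neurocan, fell from 30.2 ± 1.98 to 14.5 ± 2.88 CPM in Model (-1.04 ± 0.32, adjusted p = 0.012; 0.0719 without Model library 1) and stood at 25.4 ± 2.18 in ChryM. Ptprz1, a receptor phosphatase whose secreted form is the proteoglycan phosphacan, fell by 0.91 ± 0.26 in Model (adjusted p = 0.00857) and by 0.78 ± 0.24 in ChryM against Ctrl (adjusted p = 0.0118). Its calls were lost without Ctrl library 2 (0.179 and 0.230), the first also without Model library 2 (0.170) and the second without ChryM library 2 (0.147) or 3 (0.0639). Spock2, a testican proteoglycan, fell by 0.48 ± 0.10 in ChryM against Model (adjusted p = 0.000307; 0.0857 with limma on log2(FPKM + 1)) and, in a call lost without any of 5 single libraries (0.0552 to 0.163), by 0.29 ± 0.10 against Ctrl (adjusted p = 0.036).

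Receptors and upstream signals showed no call. None of 9 tested genes (28 matched) from a list of integrins, syndecans and other matrix receptors passed in any comparison by edgeR, DESeq2 or limma, and 1 had an unadjusted p under 0.05 in each. None of 7 tested genes (21 matched) of the TGF-beta pathway, a main inducer of collagen transcription, passed by any of these tools. By edgeR, 0, 1 and 2 of the 7 had an unadjusted p under 0.05 in Model against Ctrl, ChryM against Model and ChryM against Ctrl. Their median log2 fold changes, in that order, were 0.41, -0.34 and -0.14. The matched genes too low to test are not covered by these results. A further list held meningeal and perivascular fibroblast genes outside the rule, and was not limited to genes found only in fibroblasts. Of its 7 tested genes, 1 rose and 3 fell in Model against Ctrl, and 1 rose (Ptgds) and 1 fell (Vim) in ChryM against Model. In ChryM against Ctrl, 1 rose (Thbd) and 2 fell (Igf2, Igfbp2). The shares of all genes called were 12.4%, 8.27% and 18.8%. The Vim call (-0.81 ± 0.26, adjusted p = 0.0322) was lost without Model library 2 (0.0848) or 3 (0.199) or ChryM library 1 (0.129) or 2 (0.154). Thbd, the anticoagulant receptor thrombomodulin, was the rise in Model too, from 110 ± 13.0 CPM in Ctrl to 149 ± 21.1 in Model and 188 ± 30.2 in ChryM (0.77 ± 0.12 in ChryM against Ctrl, adjusted p = 1.11e-07). The genes that fell in Model were Igf2 (-3.47 ± 0.34), Igfbp2 (-2.01 ± 0.25, from 86.5 ± 8.82 to 21.2 ± 3.76 CPM) and Ptgds (-0.95 ± 0.13), a prostaglandin D synthase of leptomeninges, choroid plexus and oligodendrocytes. In ChryM against Model, Igf2 (0.30 ± 0.43, adjusted p = 0.774) and Igfbp2 (-0.41 ± 0.32, adjusted p = 0.537) did not pass, and Ptgds rose by 0.73 ± 0.14 (edgeR adjusted p = 1.6e-05).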

How the data were processed

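The deposited tables held whole-number counts per gene and FPKM values for each of 9 libraries, made by the authors from poly(A) RNA with a strand-marking (dUTP) kit per the labels' protocols. HISAT2 and DESeq2 are named, without versions, in the submitters' processing notes; for the build, the annotation, the read counter and whether it used strand, the entry is not given in the sources used here. Recomputing FPKM from the authors' counts and lengths gave the deposited FPKM in 100% of values (relative tolerance 1e-09). Libraries held 631119 to 866048 counts, and 22.0% to 24.6% of these were in 4367 IDs without a name, which stayed in the fit; no library pair was identical.

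Counts were tested with edgeR 4.0.16 (R 4.3.3; filterByExpr, TMM, robust quasi-likelihood fit of all 9 libraries in 3 groups, no covariates, Benjamini-Hochberg over 7073 genes, adjusted p under 0.05). CPM is the count scaled to the library's total over the 7073 tested genes times its TMM factor (0.956 to 1.07). Library-total scaling used the same totals without the factor. The SE printed is the larger of the test's and the counting error. The test's was the smaller for 9 of the 25 calls (Col5a2, Col9a3 and Col5a3 against Ctrl in both groups, Col18a1 and Col6a2 in ChryM against Model, Timp2), whose p-values may be too small. Ratios of low counts have exact binomial 95% intervals; counts of 0 were set to a floor of 3 counts. Alternatives were RLE and library-total scaling, DESeq2 1.42.0, limma 3.58.1 on log2(FPKM + 1) and log2(FPKM + 0.1), other filters, a replicate block, fits of the compared groups only and leaving out each library. Promoters and neighbours come from RefSeq (GRCr8), in which all 75 members were matched by name.

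Members and lists were chosen with earlier results of these data known. Per-library values are given for members called in any comparison, the tested members named singly or of the TIMP family, and the 3 highest tested by FPKM of the collagens and laminins (no fibulin was tested); outside genes are the up to 3 called genes of smallest p per list. Low-count fibroblast genes come from the marker list.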

Additional observations from a re-analysis of the deposited data

How the results depend on the processing

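Of the 25 calls on members, 10 held in every alternative that gave a value and 13 in every fit without a single library; none changed direction. Model against Ctrl had 5 member calls, and 2 with DESeq2, 3 with limma on log2(FPKM + 1), 3 on log2(FPKM + 0.1), 8 with no count filter (Col1a1, Col1a2, Col3a1 and Nid1 added, Col5a3 lost) and 4 to 6 without single libraries. ChryM against Model had 6, and 3 with DESeq2, 3 and 3 with limma and 3 to 6 without single libraries, the lowest without ChryM library 2. ChryM against Ctrl had 14, and 7 with DESeq2, 6 and 6 with limma and 9 to 15 without single libraries, the lowest without ChryM library 2. DESeq2 gave no adjusted p for 6 of the 25 calls. With no count filter, Col18a1 was also lost in ChryM against Model. In ChryM against Ctrl, the calls on Col18a1, Sparcl1, Col5a3, Timp2 and Lamb2 were lost in that fit. With the replicate number as a block the counts were 5, 6 and 13, and 1 call was lost, Col18a1 in ChryM against Ctrl. Same-numbered libraries correlated by -0.03 to 0.04 over 9 pairs, and libraries of different number by -0.04 to 0.06. At this shallow depth counting noise can hide a pairing, so these correlations cannot decide whether the numbers pair the libraries. Scaling by library totals shifted the median of all genes by -0.12 in Model against Ctrl and moved the share of that comparison's calls that were higher from 56.7% to 29.6%; member calls there went from 3 higher and 2 lower to 3 and 3, with Sparc added. At 631119 to 866048 counts per library, 52 members could not be tested.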
